A study of Homo sapiens with 6 samples.

Results

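Heat shock proteins and the other molecular chaperones of their families were compared between a bladder cancer cell line and a drug-resistant line derived from it. Members were taken by symbol, as genes of the HSPA, HSPH, HSPB and HSP90 families, DNAJA, DNAJB and DNAJC genes, CCT subunits, BAG genes and HSPD1, HSPE1, TRAP1, HSF1 and HSF2. The rule gave 88 genes, from 107 transcript clusters, of the 24930 genes tested. A transcript cluster is the set of array probes summarised for 1 gene. TCP1, a further chaperonin subunit of the rule, was not analysed here. The gene the array files call HSPB11 is now named IFT25, a ciliary transport protein, and was kept as a member because the rule took the symbol in the files.

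T24 is an established human bladder cancer cell line. T24/THP was selected from it once, with pirarubicin, an anthracycline that poisons topoisomerase II. The labels describe exposures of 24 h with concentrations raised stepwise, first 5 and finally 1000 ng/ml, in a selection of more than 6 months, and drug again every 2 to 3 weeks to keep the resistance. The parental line was kept in culture alongside without selection, and both carry the label T24 as cell line. RNA of 3 samples of each line was hybridised to Affymetrix whole-transcript arrays, which made 6 arrays. Since T24/THP was derived once, the replicates measure the spread within 1 resistant line and not the spread between independently selected lines. The labels do not say how long before harvest the last drug was given.

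Chaperones bind unfolded or partly folded proteins. HSP70 proteins (the HSPA genes) work in cycles of ATP hydrolysis that J proteins (the DNAJ genes) start and exchange factors, among them the BAG and HSP110 proteins, complete. HSP90 proteins act later on kinases and receptors, the small HSPB proteins hold unfolded proteins without ATP, and the chaperonins HSPD1 with HSPE1 in mitochondria and CCT in the cytosol fold proteins inside a chamber. The stress-inducible members are switched on by the transcription factor HSF1 when proteins unfold, and tumour cells often keep them high.

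Levels are log2 intensities, so a difference of 1 is a 2-fold difference, and every difference is T24/THP minus T24. The array medians lay between 3.71 and 3.79. Arrays of 1 line correlated at 0.9967 to 0.9984 over genes, and arrays of different lines at 0.977 to 0.9812. Background was read from 23 control probe sets, with an upper bound of 5.54 in T24 and 5.51 in T24/THP. Of 15 urothelial and epithelial markers, KRT7, KRT8 and KRT18 were above it, and the other 12, among them the uroplakins, KRT20 and GATA3, were within it in both lines. Of 6 leukocyte markers 5 were within background, PTPRC included, and their summed level, which is that of CD68, was 9.93 to 10.09 in T24 and 11.07 to 11.16 in T24/THP. Of 8 endothelial and fibroblast markers 7 were within background, PECAM1 and VWF included, and their summed level, set by CDH5, was 12.17 to 12.42 in T24 and 12.99 to 13.23 in T24/THP.

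The chaperone genes moved in both directions. The stress-inducible HSPA1A, HSPA1B and HSPB1 and the J protein gene DNAJC12 were higher in T24/THP, and most subunits of the cytosolic chaperonin CCT and of the mitochondrial folding machinery were lower. At an adjusted p under 0.05 (limma, Benjamini-Hochberg over all genes) and a difference of at least 2-fold, 4 members were higher and 7 lower. One of the 4, DNAJC12, was within background in T24, so its rise is given only as at least 1.44-fold over the T24 background bound of 5.54. Over all genes the same rule called 2.85% higher and 3.77% lower. With no minimum difference, 12 members (13.6%) were higher and 35 (39.8%) lower, against 15.1% and 18.0% of all genes. The median difference was -0.09 over the members and 0.01 over all genes. Of the 88 members, 23 were within the background range in both lines, and 2 of these, DNAJB2 and DNAJC17, passed the test without a minimum difference at levels that background can set. In bulk RNA, fewer cells expressing a gene and less of its RNA per cell cannot be told apart.

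**Figure D1:**
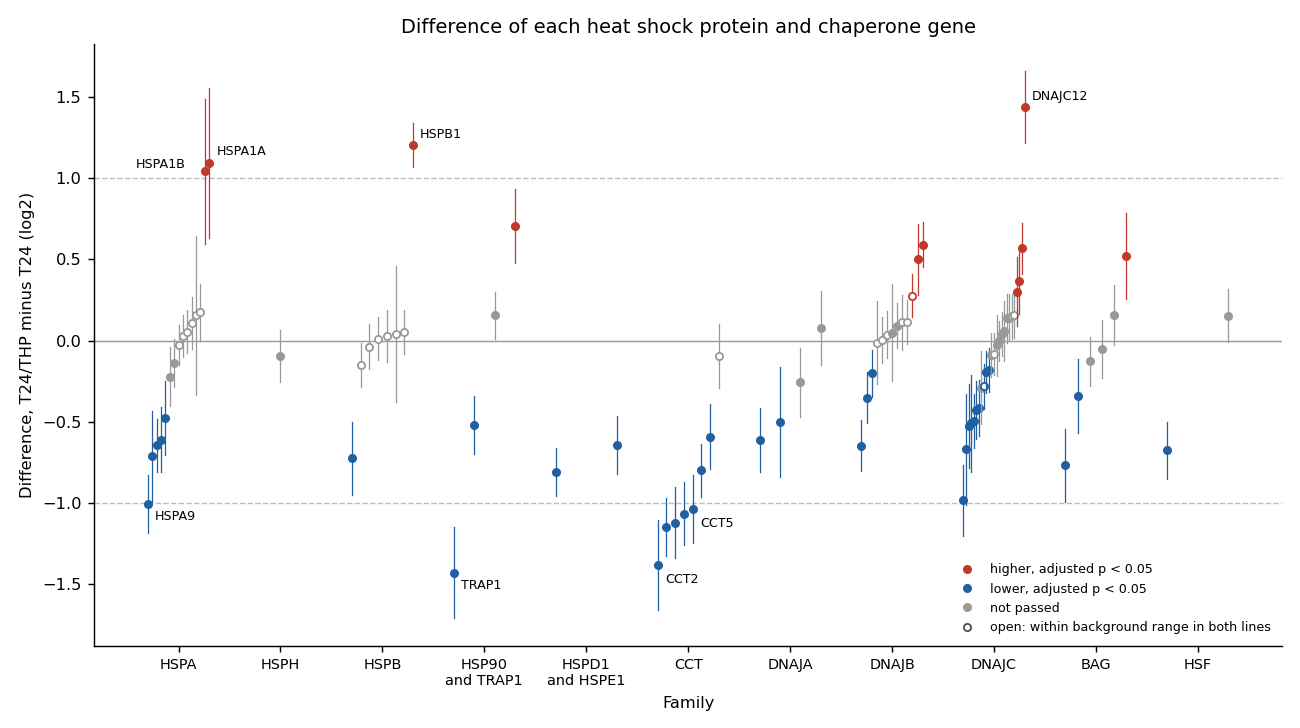
Difference of each of the 88 genes (T24/THP minus T24, log2, vertical axis) by family (horizontal axis), with 95% confidence intervals from limma. Dashed lines mark 2-fold. The CCT points all lie under 0, while HSPA holds both HSPA1A and HSPA1B near 1 and HSPA9 at -1.01.

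The share of lower members has to be read beside the level of these genes, because bright genes as a whole were more often lower than higher in T24/THP. Among the 2264 genes with a mean level of at least 10, 43.7% were lower and 28.1% higher with no minimum difference, and their median difference was -0.15. The 28 members at such levels had a median of -0.45, and 16 of them (57.1%) were lower and 4 higher. By the 2-fold rule, 6 of the 28 (21.4%) were lower against 11.3% of all genes that bright. Among the 15857 genes under 6, 6.2% were lower and 8.7% higher, and of the 30 members there, 6 were lower and 2 higher.

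**Figure D2:**
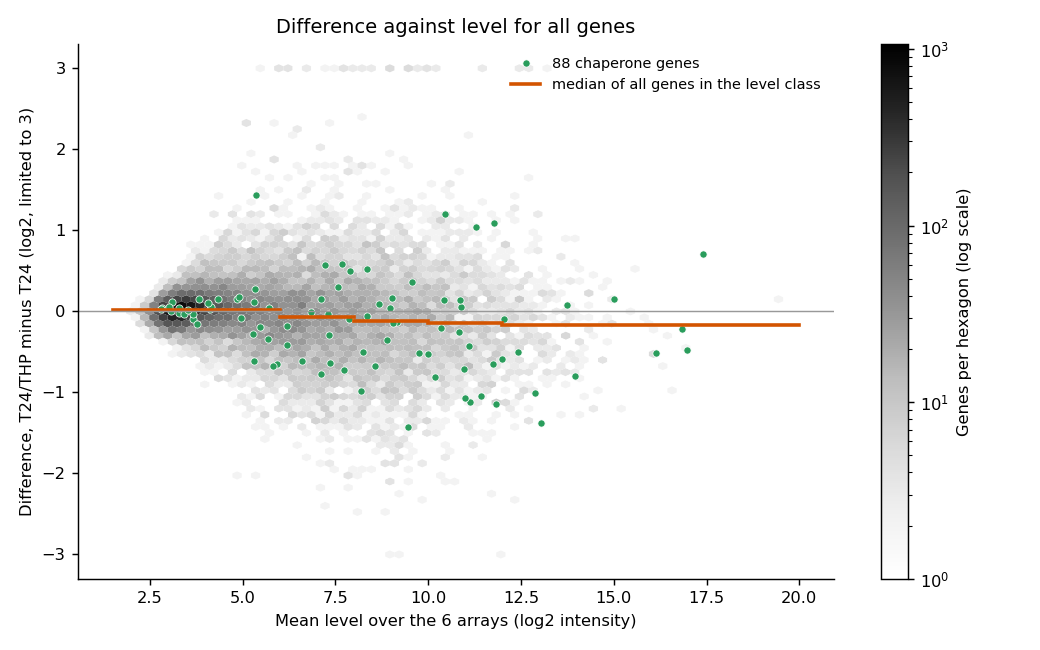
Difference between the lines (log2, vertical axis, limited to 3) against the mean level over the 6 arrays (log2 intensity, horizontal axis). Grey hexagons count all genes, green points are the 88 chaperone genes, and orange bars give the median of all genes in each level class, which falls to -0.16 among the 794 genes of 12 and above.

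Among the HSPA genes of the cytosol HSPA1A and HSPA1B rose, and HSPA8, HSPA4 and HSPA14 were lower, HSPA8 by a call that 1 scaling loses. HSPA4L did not pass, and HSPA2, HSPA12A and HSPA12B were within background in both lines. HSPA1A and HSPA1B encode nearly the same protein, the main inducible HSP70, and lie next to each other on chromosome 6 in GRCh37, the build of the deposited coordinates. HSPA1A (chr6:31783241-31785723, plus strand) read 10.81, 11.22 and 11.66 in T24 replicates 1 to 3 and 12.23, 12.50 and 12.24 in T24/THP. HSPA1B (chr6:31795512-31798032, plus strand) read 10.36, 10.72 and 11.19 in T24 and 11.69, 11.92 and 11.78 in T24/THP. For both genes the lines did not overlap, and the T24 arrays were spread more widely than the T24/THP arrays. HSPA1A differed by 1.10 ± 0.20 (SE), or 2.14-fold (adjusted p = 0.00362, limma), and HSPA1B by 1.04 ± 0.19, or 2.06-fold (adjusted p = 0.00391, limma). Without T24 replicate 1, the lowest array for both, the differences were 0.89 and 0.84, which pass the test and miss 2-fold, and without T24/THP replicate 2 HSPA1B stood at 0.98. Probes of the pair can share signal, so they are not separate evidence. The array carries 5 clusters for each gene, on chromosome 6 and its alternative haplotypes, and they gave 1.10 to 1.17 for HSPA1A and 1.04 to 1.10 for HSPA1B. HSPA1L, the germ-cell relative read from the opposite strand beside HSPA1A, and HSPA6, an HSP70 that is nearly silent until cells are stressed, were within background in both lines.

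HSPB1 (chr7:75931861-75933614, plus strand), the small heat shock protein HSP27, rose with the smallest adjusted p of all members. It read 9.85, 9.79 and 9.90 in T24 and 11.00, 11.09 and 11.05 in T24/THP, so the lines were apart by far more than their spread. The difference was 1.20 ± 0.06 (SE), or 2.30-fold (adjusted p = 7.07e-06, limma). Of the other 7 genes filed under HSPB, 6 were within background in both lines. The remaining one, IFT25, fell by 0.72 (adjusted p = 0.000775, limma).

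The rest of the inducible set did not follow. Of 10 cytosolic members that heat induces, 3 rose (HSPA1A, HSPA1B and HSPB1), BAG3 fell and 6 did not pass the test, with a median of 0.12. With no minimum difference, 15.1% of all genes rose and 18.0% fell. DNAJB1, the J protein most strongly induced with HSP70, read 8.72, 9.08 and 9.02 in T24 and 8.83, 9.20 and 8.92 in T24/THP, with overlapping lines and a difference of 0.05 (95% interval -0.25 to 0.35). HSPH1, the inducible HSP110 exchange factor, differed by -0.10 (95% interval -0.26 to 0.06, adjusted p = 0.361, limma), and DNAJA1, another inducible J protein, by 0.08 (adjusted p = 0.635, limma). These intervals do not reach the difference of HSPA1A, HSPA1B or HSPB1. HSP90AA1, the inducible cytosolic HSP90, read 14.86, 15.03 and 14.91 in T24 against 15.09 in each T24/THP array, a difference of 0.16 that did not pass (adjusted p = 0.105, limma). Once the dependence of the difference on level was taken out, it was 0.35 and passed (adjusted p = 0.00384, limma).

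HSPA8, the main HSP70 of unstressed cells, read 17.08, 17.41 and 17.14 in T24 and 16.66, 16.84 and 16.69 in T24/THP, without overlap and 1.39-fold lower (adjusted p = 0.00705, limma). That call was lost with the level trend removed (difference -0.27, adjusted p = 0.0798, limma). HSP90AB1, the constitutive HSP90, read 16.37, 16.55 and 16.29 in T24 and 15.85, 15.93 and 15.89 in T24/THP, which is 1.43-fold lower (adjusted p = 0.00136, limma). HSPA4, an exchange factor of the HSP110 type, fell by 0.64 and HSPA14, a ribosome-associated HSP70, by 0.61 (adjusted p = 0.000274 and 0.000958, limma).

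**Figure D3:**
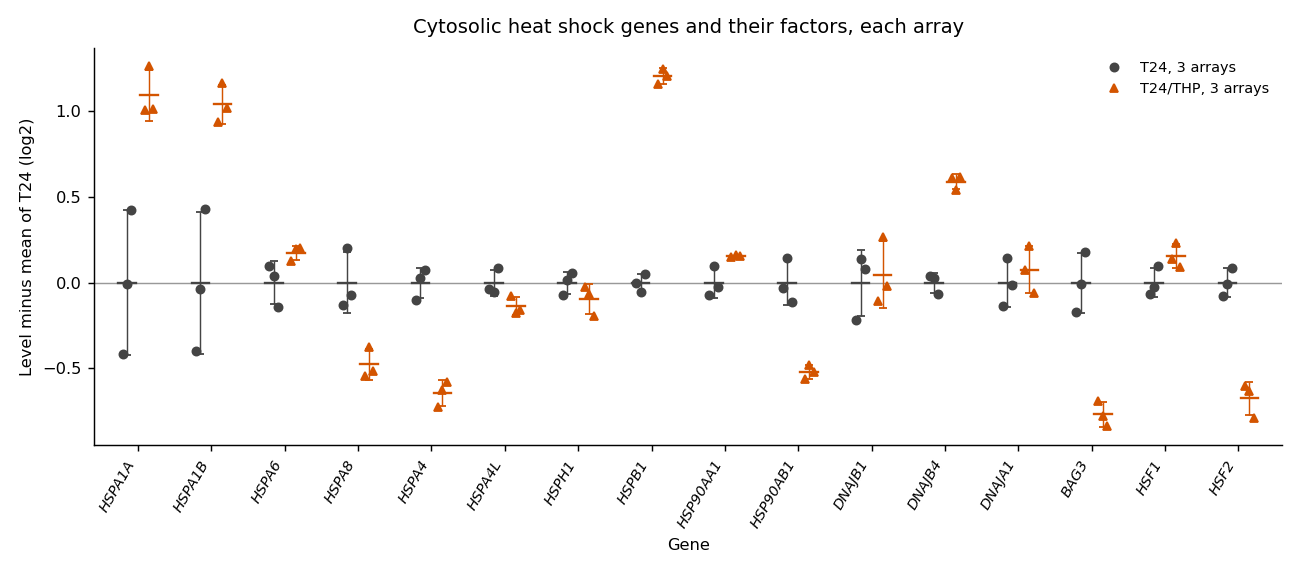
Level of cytosolic chaperones on each array minus the T24 mean (log2, vertical axis) by gene (horizontal axis), with T24 as grey circles and T24/THP as orange triangles, 3 arrays each. HSPA1A, HSPA1B and HSPB1 lie about 1 above T24, while DNAJB1, DNAJA1 and HSPH1 overlap with it and HSPA8 and HSP90AB1 lie under it.

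The promoters of these genes are shown because the genes that rose and those that did not both carry heat shock elements, the sites that HSF1 binds. Windows of 250 bases before to 50 bases after a start site were taken from RefSeq (GRCh38.p14), which held them for 77 of the 88 members. A pair of inverted units was searched as GAANNTTC or TTCNNGAA, which on both strands are the same letters, and capitals mark the units found. DNAJB1 and HSPD1 have several start sites, and 1 window of each is printed.
HSPA1A, chr6:31815293-31815592, plus strand: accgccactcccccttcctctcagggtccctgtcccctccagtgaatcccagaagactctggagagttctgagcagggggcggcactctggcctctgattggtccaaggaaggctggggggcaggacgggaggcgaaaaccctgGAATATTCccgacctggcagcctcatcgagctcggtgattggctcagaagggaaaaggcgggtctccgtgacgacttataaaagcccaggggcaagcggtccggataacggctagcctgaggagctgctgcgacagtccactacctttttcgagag
HSPA1B, chr6:31827488-31827787, plus strand: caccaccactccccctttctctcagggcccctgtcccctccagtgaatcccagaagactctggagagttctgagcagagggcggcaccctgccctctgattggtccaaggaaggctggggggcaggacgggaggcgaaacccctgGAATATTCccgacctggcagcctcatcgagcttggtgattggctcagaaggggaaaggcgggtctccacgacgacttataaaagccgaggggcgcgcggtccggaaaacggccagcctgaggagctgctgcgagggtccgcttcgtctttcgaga
HSPB1, chr7:76302423-76302722, plus strand: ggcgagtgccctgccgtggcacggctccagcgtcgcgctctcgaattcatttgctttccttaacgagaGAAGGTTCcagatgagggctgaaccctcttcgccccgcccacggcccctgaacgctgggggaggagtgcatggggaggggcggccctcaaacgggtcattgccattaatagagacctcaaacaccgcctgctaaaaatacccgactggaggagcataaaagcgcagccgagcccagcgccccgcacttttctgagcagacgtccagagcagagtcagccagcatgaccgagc
DNAJB1, chr19:14518348-14518647, minus strand: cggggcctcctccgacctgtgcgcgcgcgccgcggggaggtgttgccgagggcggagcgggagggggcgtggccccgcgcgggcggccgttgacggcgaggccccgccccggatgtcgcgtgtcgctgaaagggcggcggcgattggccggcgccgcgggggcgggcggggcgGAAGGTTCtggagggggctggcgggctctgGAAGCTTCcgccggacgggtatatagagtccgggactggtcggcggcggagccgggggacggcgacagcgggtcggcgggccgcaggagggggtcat
HSPA8, chr11:123062087-123062386, minus strand: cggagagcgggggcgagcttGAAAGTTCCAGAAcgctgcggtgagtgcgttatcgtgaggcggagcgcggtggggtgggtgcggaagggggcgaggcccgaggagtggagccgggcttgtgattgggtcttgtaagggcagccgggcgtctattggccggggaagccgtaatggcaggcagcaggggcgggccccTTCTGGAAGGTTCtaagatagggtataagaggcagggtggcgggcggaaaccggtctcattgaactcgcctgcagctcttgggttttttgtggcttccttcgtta
The pair of units was in windows of 26 of the 77 members and in 13.5% of all 35116 RefSeq windows, and a run of 3 units was in windows of 7 members and in 0.49% of all windows. A member can have several windows, so the shares are not on the same base. The windows of HSPA1A and HSPA1B were 92.6% identical (277 of 299 aligned bases), with the same 8 capital letters. Only exact letters were searched, so imperfect units beside a match were not counted, and the counts do not rank the strength of a site. HSPA1A, HSPA1B and HSPB1, which rose, had 1 exact pair each. DNAJB1, which did not pass, had 2 pairs in the window shown. HSPA8 had runs of 3 units, and so did HSP90AA1, HSP90AB1, DNAJA1, DNAJB6, HSPA6 and HSPD1. None of these 7 rose as deposited, but HSPA6 was within background in both lines and could not be judged. With no minimum difference only 15.1% of all genes and 13.6% of the members rose, so 7 genes are too few to relate such runs to a rise. HSP90AA1 rose with the level trend removed. HSP90AA1 and HSP90AB1 had such runs in some of their windows and not in all. A match describes letters only, and binding was not measured.

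The subunits of the cytosolic chaperonin fell together. CCT is a ring of different subunits that folds actin and tubulin, and a cell needs all of them to build the ring. Of 8 CCT genes measured, 7 were above background and all 7 were lower, 5 of them by at least 2-fold. Of all genes with a mean level of at least 10, 43.7% were lower, and 11.3% by at least 2-fold. CCT6B, the testis form of subunit 6, was within background in both lines. The 7 differences ran from -1.38 to -0.59, with a median of -1.07.

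CCT2 (chr12:69979114-69995357, plus strand) had the largest difference of the ring. It read 13.47, 13.77 and 13.95 in T24 and 12.40, 12.39 and 12.27 in T24/THP, so every T24/THP array lay more than 1 log2 unit under every T24 array. The mean fell from 13.73 ± 0.24 (SD, n = 3) to 12.35 ± 0.07, which is 2.61-fold lower (95% interval of the log2 difference -1.66 to -1.10, adjusted p = 8.44e-05, limma). CCT8 (chr21:30428126-30446118, minus strand) read 12.28, 12.42 and 12.49 in T24 and 11.16, 11.31 and 11.27 in T24/THP, 2.21-fold lower. CCT7 (chr2:73460548-73480150, plus strand) went from 11.52, 11.75 and 11.76 to 10.58, 10.67 and 10.42, 2.17-fold lower. For both subunits the lines were about 1 unit apart at their nearest arrays or somewhat less. CCT6A (chr7:56119323-56131682, plus strand) read 11.40, 11.67 and 11.49 in T24 and 10.39, 10.53 and 10.44 in T24/THP, 2.09-fold lower. CCT5 (chr5:10250033-10266524, plus strand) fell 2.05-fold, from 11.95 ± 0.10 to 10.91 ± 0.15 (SD, n = 3). Adjusted p-values for CCT8, CCT7, CCT6A and CCT5 lay between 2.71e-05 and 8.75e-05 (limma).

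The other subunits fell by less. CCT4 (chr2:62095224-62115939, minus strand) read 14.31, 14.46 and 14.33 in T24 and 13.51, 13.66 and 13.53 in T24/THP, which is 1.74-fold lower (adjusted p = 9.24e-05, limma). CCT3 (chr1:156278752-156337664, minus strand) read 12.12, 12.36 and 12.40 in T24 and 11.68, 11.77 and 11.65 in T24/THP, 1.51-fold lower (95% interval -0.79 to -0.39, adjusted p = 0.00116, limma). The lines did not overlap for either gene, and the interval of CCT3 does not meet that of CCT2. The 7 subunits stayed lower without a minimum difference after quantile normalization, after removing the level trend and with an offset of 32. The number past 2-fold was 3 after quantile normalization and 1, CCT2, with the level trend removed, where CCT8 stood at -0.997, CCT7 at -0.98, CCT6A at -0.93 and CCT5 at -0.89. Leaving out T24 replicate 2 put CCT6A at -0.99, and leaving out T24/THP replicate 3 put CCT5 at -0.97.

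**Figure D4:**
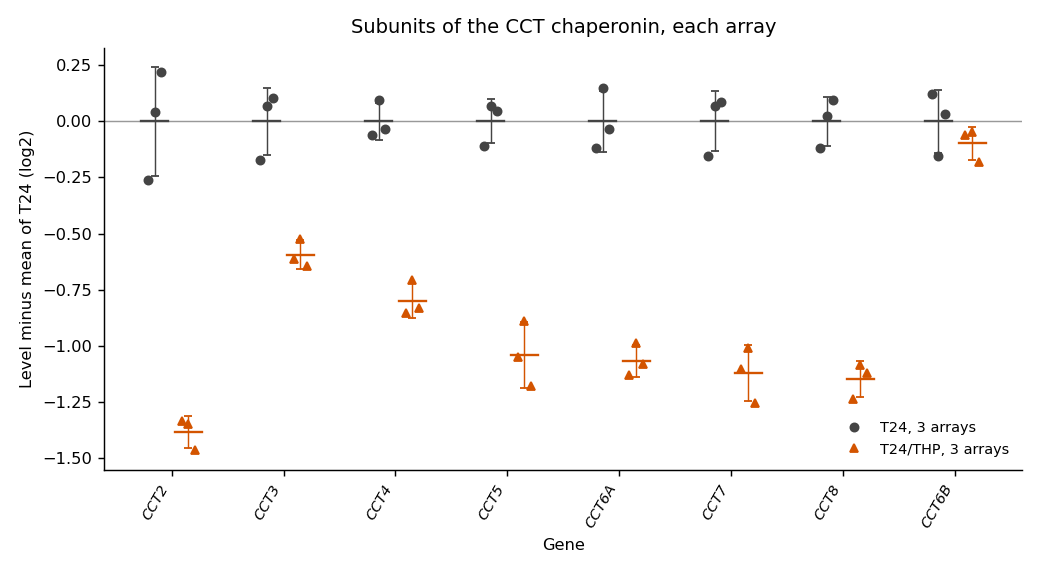
Level of the CCT subunits on each array minus the T24 mean (log2, vertical axis) by gene (horizontal axis), with T24 as grey circles and T24/THP as orange triangles, 3 arrays each. The T24/THP arrays lie under all T24 arrays for the 7 subunits above background, and CCT6B, which is within background, overlaps.

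Genes that help the chaperonin went the same way. Prefoldin hands unfolded actin and tubulin to CCT, and phosducin-like proteins and tubulin cofactors work beside it. Of 17 such genes 12 were lower and none higher with no minimum difference, against 18.0% and 15.1% of all genes. In the level classes of 6 and above, 33.8% to 44.5% of all genes were lower. The 17 had a median of -0.40, and 5 of them did not pass. VBP1, a prefoldin subunit, was the only one past 2-fold. It read 10.24, 10.33 and 10.08 in T24 and 8.74, 8.93 and 8.83 in T24/THP, 2.61-fold lower without overlap (adjusted p = 1.72e-05, limma).

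The mitochondrial chaperones among the members fell too, with 1 exception. Proteins imported into mitochondria are pulled in and folded by HSPA9, the mitochondrial HSP70, passed to the HSPD1 and HSPE1 chamber, and assisted by TRAP1, the mitochondrial HSP90. Of 9 mitochondrial members 8 were lower (88.9%, against 18.0% of all genes) and 1 higher (11.1%, against 15.1%). In the level classes of 6 and above, where all of the 9 but DNAJC30 lay, 33.8% to 44.5% of all genes were lower. The median of the 9 was -0.67, and TRAP1 and HSPA9 passed 2-fold. With the level trend removed 7 of the 9 were lower, and 1 passed 2-fold.

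TRAP1 (chr16:3708038-3767598, minus strand) had the largest fall of all members. It read 9.90, 10.33 and 10.32 in T24 and 8.71, 8.83 and 8.72 in T24/THP. The lines were more than 1 log2 unit apart at their nearest arrays, and TRAP1 was 2.69-fold lower (difference -1.43 ± 0.12 SE, adjusted p = 7.72e-05, limma). HSPA9 (chr5:137890571-137911318, minus strand) read 13.25, 13.51 and 13.39 in T24 and 12.34, 12.39 and 12.39 in T24/THP, 2.01-fold lower (difference -1.01 ± 0.08 SE, adjusted p = 4.6e-05, limma). It sits on the 2-fold line. Without T24 replicate 2 it was at -0.94, without T24/THP replicate 1 at -0.99, after quantile normalization at -0.91 and with the level trend removed at -0.84, each past the test.

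HSPD1 (HSP60, chr2:198351305-198381461, minus strand) forms the barrel of the mitochondrial chaperonin and HSPE1 (HSP10, chr2:198364718-198368187, plus strand) its lid. The genes lie head to head, and on the array the HSPE1 cluster lies inside the span of the HSPD1 cluster on the opposite strand. HSPD1 read 10.51, 10.66 and 10.60 in T24 and 9.82, 9.81 and 9.72 in T24/THP, 1.75-fold lower (adjusted p = 5.69e-05, limma). HSPE1 read 7.61, 7.77 and 7.69 in T24 and 7.09, 7.13 and 6.92 in T24/THP, 1.56-fold lower (adjusted p = 0.000456, limma). For both genes all T24/THP arrays lay under all T24 arrays, and they fell by 0.81 and 0.64. Their RefSeq start regions (GRCh38.p14) are shown because the pair shares 1 promoter region: the HSPE1 window overlaps another HSPD1 window by 204 bases. Capitals mark 4 heat shock units in a row in the HSPD1 window printed, and in HSPE1 the E-box CACGTG, a site of MYC and related factors, which was in 7.26% of all windows and in windows of 9 of the 77 members.
HSPD1, chr2:197499791-197500090, minus strand: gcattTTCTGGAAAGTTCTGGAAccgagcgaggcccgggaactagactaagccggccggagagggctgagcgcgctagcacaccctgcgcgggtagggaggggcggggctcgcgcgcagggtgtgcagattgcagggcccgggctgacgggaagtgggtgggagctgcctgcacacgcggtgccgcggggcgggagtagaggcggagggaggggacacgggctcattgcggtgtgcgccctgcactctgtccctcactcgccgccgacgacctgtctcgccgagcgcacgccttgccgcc
HSPE1, chr2:197500129-197500428, plus strand: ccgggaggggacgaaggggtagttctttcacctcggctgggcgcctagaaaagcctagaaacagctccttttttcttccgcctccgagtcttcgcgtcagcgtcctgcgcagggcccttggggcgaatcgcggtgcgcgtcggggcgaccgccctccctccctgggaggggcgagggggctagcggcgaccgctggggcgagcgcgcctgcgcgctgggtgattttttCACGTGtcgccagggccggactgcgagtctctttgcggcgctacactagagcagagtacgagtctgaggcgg

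The mitochondrial J proteins split. DNAJC15, a J protein of the inner membrane, read 8.66, 8.84 and 8.53 in T24 and 7.58, 7.76 and 7.75 in T24/THP, 1.98-fold lower without overlap (adjusted p = 0.000145, limma). DNAJC11 fell by 0.53 and DNAJA3, a matrix partner of HSPA9, by 0.50 (adjusted p = 0.00753 and 0.0314, limma). The DNAJA3 call was lost with the level trend removed (adjusted p = 0.0606), with an offset of 32 (0.0647) and without T24/THP replicate 1 or 3 (0.093 and 0.0985). DNAJC30 was at least 1.56-fold lower, since its T24/THP level was within background (adjusted p = 0.00905, limma). DNAJC19, a J protein of the import motor, rose. It read 7.57, 7.32 and 7.39 in T24 and 7.62, 7.72 and 7.85 in T24/THP, apart by little and 1.23-fold higher (adjusted p = 0.036, limma).

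In the endoplasmic reticulum the HSP90 and HSP70 genes did not move together. HSP90B1 (GRP94, chr12:104324112-104341704, plus strand) folds receptors and integrins. It read 17.17, 17.13 and 16.84 in T24 and 17.70, 17.72 and 17.84 in T24/THP, 1.63-fold higher without overlap (difference 0.71 ± 0.10 SE, adjusted p = 0.000946, limma). HSPA5 (BiP), the HSP70 of this compartment, read 17.07, 16.88 and 16.89 in T24 and 16.63, 16.76 and 16.79 in T24/THP. Its arrays did not overlap either but lay close, and the difference of -0.22 did not pass (95% interval -0.40 to -0.04, adjusted p = 0.0644, limma). It passed after quantile normalization (-0.21, adjusted p = 0.0262) and with the dimmer genes left out (adjusted p = 0.0402). As deposited, the intervals of HSP90B1 and HSPA5 lie on opposite sides of 0. Whether HSPA5 passed depends on the scaling. Removing the level trend moved HSP90B1, of similar level, up from 0.71 to 0.92. That shift is about as large as the whole difference of HSPA5, so a fall of HSPA5 is not established.

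HSP90B1 and HSPA5 are usually induced together when proteins unfold in this compartment, through the endoplasmic reticulum stress response element, CCAAT and CCACG with 9 bases between. Their windows (RefSeq, GRCh38.p14) are shown because, of the 77 members with windows, only these 2 held an exact match to this element. Imperfect copies were not counted, and the exact element was in 0.077% of all windows. Capitals mark it on either strand, with 2 matches in HSP90B1 and 1 in HSPA5.
HSP90B1, chr12:103930160-103930459, plus strand: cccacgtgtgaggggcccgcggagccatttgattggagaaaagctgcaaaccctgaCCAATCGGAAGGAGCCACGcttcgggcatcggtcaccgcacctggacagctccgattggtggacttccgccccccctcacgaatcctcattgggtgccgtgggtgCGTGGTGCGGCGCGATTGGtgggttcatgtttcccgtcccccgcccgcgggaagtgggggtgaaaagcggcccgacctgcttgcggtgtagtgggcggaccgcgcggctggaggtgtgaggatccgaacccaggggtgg
HSPA5, chr9:125241294-125241593, minus strand: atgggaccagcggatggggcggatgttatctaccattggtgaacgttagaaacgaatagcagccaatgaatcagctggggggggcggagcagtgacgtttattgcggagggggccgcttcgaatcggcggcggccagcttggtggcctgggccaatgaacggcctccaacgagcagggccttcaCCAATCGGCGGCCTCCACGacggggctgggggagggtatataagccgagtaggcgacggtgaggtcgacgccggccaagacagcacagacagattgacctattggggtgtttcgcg

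Of the 10 members of this compartment 2 rose (20.0%, against 15.1% of all genes), 4 fell (40.0%, against 18.0%) and 4 did not pass. Their median was -0.21. After quantile normalization 3 rose and 5 fell, and with the level trend removed 3 rose and 3 fell. HSPA13, a small HSP70 of microsomes, read 11.42, 11.04 and 11.46 in T24 and 10.59, 10.50 and 10.71 in T24/THP, 1.64-fold lower (adjusted p = 0.0025, limma). DNAJC3, a J protein known as an inhibitor of the stress kinase PERK, fell by 0.43, and DNAJB11, a J protein partner of HSPA5, by 0.20 (adjusted p = 0.00359 and 0.0412, limma). Another cluster of DNAJB11 gave -0.24 and did not pass (adjusted p = 0.103, limma over all clusters). The membrane J proteins DNAJB12 and DNAJB14, which act together in disposing of misfolded membrane proteins, went apart. DNAJB12 read 8.97, 9.04 and 9.17 in T24 and 8.73, 8.71 and 8.68 in T24/THP, and fell by 0.35 (adjusted p = 0.00456, limma). DNAJB14 read 7.66, 7.58 and 7.73 in T24 and 8.16, 7.99 and 8.32 in T24/THP, and rose by 0.50 (adjusted p = 0.00424, limma). Neither pair of groups overlapped. DNAJB9, a J protein induced by the same stress, was within background in both lines, and DNAJC10, a disulfide reductase, differed by 0.14 (adjusted p = 0.167, limma).

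**Figure D5:**
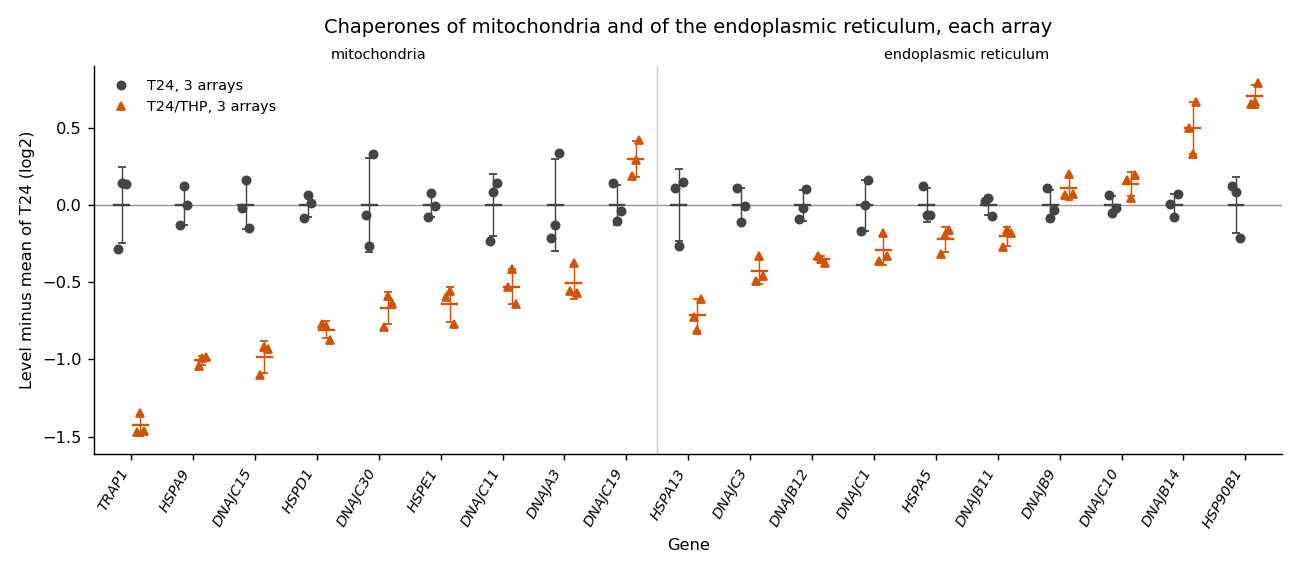
Level of mitochondrial and endoplasmic reticulum chaperones on each array minus the T24 mean (log2, vertical axis) by gene (horizontal axis), with T24 as grey circles and T24/THP as orange triangles, 3 arrays each. TRAP1 lies more than 1 under the T24 mean and HSPA9 close to 1 under it, DNAJC19 slightly above it, and HSP90B1 lies above T24 while HSPA5 lies close to it.

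J proteins choose what HSP70 works on, and this large family went both ways. Of 42 DNAJA, DNAJB and DNAJC genes 7 rose (16.7%, against 15.1% of all genes) and 15 fell (35.7%, against 18.0%). Among all genes with a mean level of 6 to 8, 26.0% rose and 33.8% fell. The rest of the 42 did not pass. The median of the 42 was -0.01, and 10 of them were within background in both lines. DNAJC12 (chr10:69556427-69597937, minus strand), a cochaperone of the enzymes that hydroxylate phenylalanine, tyrosine and tryptophan, was the only one called by the 2-fold rule, and that call rests on a T24 level within background. It read 4.57, 4.57 and 4.75 in T24 and 5.97, 5.98 and 6.24 in T24/THP. All T24/THP arrays lay above the background bound of T24, and against that bound the rise was at least 1.44-fold, which does not place it past 2-fold. The bound is an average of 5.29, 4.93 and 6.38 in T24 replicates 1 to 3. The value of replicate 3 lies above every T24/THP reading of DNAJC12, so the minimum holds for the average only. The fitted difference was 1.44 ± 0.09 SE on the log2 scale (adjusted p = 2.61e-05, limma), and with an offset of 32 it was 0.80, under 2-fold.

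Smaller rises were seen for DNAJB4, a cytosolic partner of HSP70 that read 7.42, 7.41 and 7.32 in T24 and 7.997, 7.926 and 8.003 in T24/THP (1.51-fold, adjusted p = 0.000177, limma). The groups were well apart. DNAJC16 rose 1.48-fold and DNAJC4 1.29-fold (adjusted p = 0.000419 and 0.0126, limma). DNAJB5 fell 1.57-fold and DNAJA4 at least 1.08-fold (adjusted p = 0.000211 and 0.00092, limma). DNAJC7, which links HSP70 to HSP90, fell by 0.50, and DNAJC8, found with the spliceosome, by 0.51 (adjusted p = 0.00116 and 0.0173, limma).

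BAG proteins release the client from HSP70. Of 6 genes 1 rose (16.7%, against 15.1% of all genes), 2 fell (33.3%, against 18.0%) and 3 did not pass, all by less than 2-fold. BAG3, which routes HSP70 clients to autophagy and is itself a heat-inducible gene, read 7.31, 7.48 and 7.66 in T24 and 6.80, 6.70 and 6.65 in T24/THP, 1.70-fold lower without overlap (difference -0.77 ± 0.10 SE, adjusted p = 0.000538, limma). BAG5 read 7.999, 7.98 and 8.33 in T24 and 8.50, 8.77 and 8.59 in T24/THP, 1.43-fold higher and apart (adjusted p = 0.00944, limma). BAG1, an exchange factor that also binds BCL2, fell by 0.34 (adjusted p = 0.0301, limma), a call lost without T24 replicate 2 or 3 or T24/THP replicate 1 or 3 (adjusted p from 0.0789 to 0.0981) and with an offset of 32 (0.0503).

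The heat shock factors differed in how they moved. HSF1, the main switch of the heat shock response, read 6.97, 7.01 and 7.13 in T24 and 7.18, 7.27 and 7.13 in T24/THP, with lines that met at 7.13 and a difference of 0.15 that did not pass (adjusted p = 0.140, limma). After quantile normalization it was 0.21 and passed (adjusted p = 0.0176). HSF2, a relative that forms mixed trimers with HSF1, read 8.83, 8.91 and 9.001 in T24 and 8.31, 8.28 and 8.13 in T24/THP, 1.60-fold lower without overlap (adjusted p = 0.000293, limma). HSF1 is regulated mainly as a protein, which these arrays do not measure.

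Other genes of the chaperone network, 86 in 7 lists, had a median of -0.27. With no minimum difference 45 (52.3%) were lower and 10 (11.6%) higher, against 18.0% and 15.1% of all genes. Among the 25 of them with a mean level of at least 10, 17 (68.0%) were lower, against 43.7% of all genes that bright. FLCN, CRYAB and HSF4, counted as higher, and PAM16, counted as lower, were within background in both lines, at levels that background can set. Of 22 HSP90 cochaperones 4 rose and 9 fell. STIP1, which joins HSP70 to HSP90, read 14.21, 14.55 and 14.49 in T24 and 13.22, 13.44 and 13.14 in T24/THP, 2.21-fold lower (adjusted p = 0.000174, limma), and PPP5C, a phosphatase bound to HSP90, was 2.11-fold lower (adjusted p = 8.2e-05, limma). FNIP1, a folliculin partner that slows HSP90, read 8.70, 8.64 and 8.80 in T24 and 9.80, 9.68 and 9.77 in T24/THP, 2.05-fold higher (adjusted p = 2.27e-05, limma). In all of them the lines were apart.

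Of 11 exchange factors and adaptors of HSP70, 7 fell and none rose, where 18.0% of all genes fell and 15.1% rose. Of 18 other chaperones and unfoldases 2 rose and 9 fell. CLU, the secreted chaperone clusterin, read 6.29, 6.19 and 6.15 in T24 and 8.08, 8.16 and 9.24 in T24/THP, 4.87-fold higher (adjusted p = 0.000528, limma), and T24/THP replicate 3 stood above the other two. CLPB, a mitochondrial disaggregase, read 7.70, 7.98 and 8.10 in T24 and 6.73, 6.71 and 6.58 in T24/THP, 2.38-fold lower and apart (adjusted p = 8.26e-05, limma). Of 7 J proteins outside the symbol rule 1 rose and 3 fell, and HSF4 and HSF5 were within background in both lines. HSBP1, a protein that binds HSF1, was 1.41-fold lower (adjusted p = 0.0114, limma) and was chosen after its values were seen. A list of 15 heat-inducible targets of HSF1 outside the symbol rule shares genes with the lists above, STIP1, AHSA1 and CRYAB among them. Of these 15, 4 rose, 6 fell and 5 did not pass, with a median of -0.17, so that list did not move 1 way either.

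Of the 41 members that did not pass, 20 were above background in a line, with differences between -0.29 and 0.16, and 21 were within background in both lines.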

How the data were processed

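RNA was amplified and labelled with the WT PLUS kit of Affymetrix, as the labels' protocols say. The authors deposited log2 intensities for each transcript cluster on every array, and the submitters' processing notes name Affymetrix Expression Console. How that program was set is not stated in what was used here. Deposited coordinates are on GRCh37.

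Transcript clusters with exactly 1 symbol (26515) were used. A gene with several was represented by its brightest cluster on average, and low values were kept. Old symbols were updated through RefSeq. Lines were compared by limma 3.58.1 under R 4.3.3 (lmFit and eBayes without covariates), and two-sided p-values were adjusted over 24930 genes by Benjamini-Hochberg. The brightest background probe set of each array, averaged within a line, bounded the background. It ranged from 4.93 to 6.38 over the T24 arrays and from 5.36 to 5.60 over the T24/THP arrays. A gene under that bound in 1 line gets a minimum fold ("at least"), and a gene under it in both gets none. With 3 arrays a line, their number limits the precision.

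The deviations of same-numbered replicates correlated at 0.02 to 0.15 across genes, so numbers were not taken to pair samples. The test was checked on simulated data.

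The members and lists were chosen with earlier results of these data known. Named are all members called at 2-fold, the 3 with the largest difference in each family, a fixed set of well-known chaperones, and up to 2 genes per direction of each other list called at 2-fold. Further members named were chosen after their values were seen. The alternatives tried were quantile normalization, removal of the trend with level, an offset of 32, a filter at the median level, all clusters, another variance model, a replicate block, a test against 2-fold itself, the series table, and leaving out each replicate.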

Additional observations from a re-analysis of the deposited data

How the results depend on the processing

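The counts of members past 2-fold depend on the scaling and on how the threshold is set, while among the 36 members of the fixed naming rule, the genes for which single-gene alternatives were counted, no difference that passed changed sign. The 4 higher members became 1 when limma's treat tested against 2-fold itself, and that 1, DNAJC12, has a T24 level within background and is under 2-fold (0.80) with an offset of 32. They became 2 to 4 when each replicate was left out in turn, with 2 without T24 replicate 1. The 7 lower members became 4 after quantile normalization, 2 with the level trend removed and 0 under treat, where 3 had an unadjusted p under 0.05. Of the 11 members called, 8 kept their call after quantile normalization and 6 with the level trend removed. The median difference of the members, -0.09, was -0.0277 after quantile normalization, -0.0304 with the level trend removed, -0.043 with an offset of 32 and -0.20 with the dimmer genes left out, and -0.108 to -0.0677 when each replicate was left out. Leaving out the dimmer genes removes members within background from the list. For the other shifts the cause was not tested. With a replicate block, since the lines share numbers, the counts were 4 higher and 7 lower at 2-fold, and 11 higher and 33 lower with no minimum difference. Over the alternatives of those 36 members, 468 values stayed on their side of the threshold, 26 lost it and 9 gained it.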
